A study of Mus musculus with 30 samples.

Results

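The genes of mitosis, the spindle and the kinetochore were followed as a group of 46 named genes through 10 days of mouse retinal organoid formation. They were chosen by symbol from a list of cell division genes, and all 46 were found among the 45594 genes of the deposited gene table. The organoids came from 1 clone of Nrl-GFP induced pluripotent stem cells (iPSCs), reprogrammed from mouse embryonic fibroblasts with doxycycline-inducible lentiviral Oct3/4, Sox2, Klf4 and c-Myc, so every library shares that background. The starting iPSCs, with their feeders, are day 0 (D0), and D4 libraries were made from 36 whole organoids. Dissected neural retina was pooled from 30 organoids at D7, from 20 at D10, and from 12 on each later day (D12, D15, D18, D22, D25, D32). By label the 3 libraries of a day are biological replicates, so p-values below measure the spread between such pools. By the labels the culture stood in 5% oxygen up to D10 and in 20% after it, medium changed at D7 and D10, and serum and B27 entered the medium after D25 and before D32.

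A cell that divides copies its DNA in S phase and separates the copies in mitosis. Cyclin A and cyclin B switch on the kinase CDK1 to start mitosis, kinesins and microtubule proteins build the spindle, and kinetochores tie each chromosome to it. The spindle checkpoint holds the anaphase-promoting complex (APC/C) until all chromosomes are attached, after which cohesion is cut and the cell divides. In the developing retina the progenitors divide, and the neurons and photoreceptors they give rise to have left the cell cycle. Most mitosis genes are transcribed late in the cycle, S phase genes earlier, and E2F, B-Myb and FoxM1 are among the factors known to act on them. In bulk RNA, fewer dividing cells and less RNA per dividing cell cannot be told apart.

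Library totals lay between 16.77 and 24.53 M counts, and 19897 genes passed the filter on low counts, the 46 mitosis genes among them. Levels are CPM after TMM scaling (counts brought to a common library size), as mean ± SD with n = 3 libraries a day. Changes are log2 of the later over the earlier day from edgeR's quasi-likelihood test, with Benjamini-Hochberg adjustment over all tested genes, and a gene was called at an adjusted p below 0.05. Replicate libraries correlated at 0.9483 to 0.9882, lowest at D4, where replicate 2 had a TMM factor of 0.524. The libraries also differed in how counts fell between Rpl3, a ribosomal protein gene, and its processed copies. The copies took 12 to 31.8% of those counts in all D0 and D7 libraries and in each replicate 2 between D10 and D25 (set 1), against 70.9 to 86.5% elsewhere (set 2). Results that differ between the sets are given both ways.

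Promoter sequence was looked at first, because genes that move together can share short elements near their start. Reference windows from RefSeq (GRCm38.p6) ran from 250 bases before to 50 bases after each start and were available for 37 of the 46 mitosis genes and 48 of 58 S phase genes. The search, on both strands, covered CCAAT (the box bound by NF-Y), TTTGAA (a common form of the cell cycle homology element) and 4 E2F-type strings, TTTCCCGC, TTTGGCGC, TTTCGCGC and GGCGGGAA. Shown here are the 150 bases before the start of 5 mitosis genes with the largest falls by D25 among those that hold both CCAAT and TTTGAA in that stretch, then Mki67, with CCAAT and TTTGAA in capitals on either strand. The E2F-type letters that Cdk1 also holds are left in lower case.

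Ube2c, chr2:164769779-164769928, plus strand: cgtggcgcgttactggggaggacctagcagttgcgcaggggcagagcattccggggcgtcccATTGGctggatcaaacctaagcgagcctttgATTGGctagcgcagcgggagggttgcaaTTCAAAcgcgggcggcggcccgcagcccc
Kif11, chr19:37376232-37376381, plus strand: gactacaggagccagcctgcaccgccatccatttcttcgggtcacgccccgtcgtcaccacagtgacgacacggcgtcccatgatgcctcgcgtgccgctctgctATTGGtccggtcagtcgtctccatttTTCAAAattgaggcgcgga
Cdc20, chr4:118437344-118437493, minus strand: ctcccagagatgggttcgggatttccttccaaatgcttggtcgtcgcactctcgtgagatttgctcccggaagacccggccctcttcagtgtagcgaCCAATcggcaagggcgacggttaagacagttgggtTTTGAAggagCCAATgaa
Top2a, chr11:99024190-99024339, minus strand: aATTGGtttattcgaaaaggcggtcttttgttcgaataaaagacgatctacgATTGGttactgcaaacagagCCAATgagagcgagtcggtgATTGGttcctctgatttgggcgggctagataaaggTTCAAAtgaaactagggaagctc
Cdk1, chr10:69352913-69353062, minus strand: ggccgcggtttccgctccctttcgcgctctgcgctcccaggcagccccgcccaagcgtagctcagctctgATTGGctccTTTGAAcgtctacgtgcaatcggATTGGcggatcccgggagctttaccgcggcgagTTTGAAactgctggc
Mki67, chr7:135716380-135716529, minus strand: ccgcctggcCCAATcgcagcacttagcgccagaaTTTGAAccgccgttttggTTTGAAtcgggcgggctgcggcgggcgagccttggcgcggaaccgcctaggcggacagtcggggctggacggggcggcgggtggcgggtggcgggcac

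For contrast, the next lines give the same stretch of 2 S phase genes with an E2F-type string, which is in capitals here, so CCAAT letters are left in lower case.

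Uhrf1, chr17:56303187-56303336, plus strand: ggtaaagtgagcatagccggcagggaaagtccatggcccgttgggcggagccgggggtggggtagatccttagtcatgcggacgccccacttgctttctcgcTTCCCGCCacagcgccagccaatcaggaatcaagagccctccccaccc
Mcm5, chr8:75109359-75109508, plus strand: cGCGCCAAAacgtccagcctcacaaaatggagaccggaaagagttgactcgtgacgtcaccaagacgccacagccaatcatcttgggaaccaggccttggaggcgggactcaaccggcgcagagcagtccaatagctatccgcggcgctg

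TTTGAA stood in the windows of 28 of 37 mitosis genes (75.7%), against 8 of 48 S phase genes (16.7%) and 20.2% of the 27025 genes with a RefSeq window. CCAAT was found in 27 mitosis genes (73%), against 29 S phase genes (60.4%) and 41.1% of all genes. Both strings occurred together in 23 mitosis genes (62.2%), 5 S phase genes (10.4%) and 8.97% of all genes. E2F-type strings ran the other way, with 1 mitosis gene (2.7%, Cdk1) against 23 S phase genes (47.9%) and 4% of all genes. Windows were also available for 62 of 74 further mitosis genes, which are described below. Among these 62, TTTGAA stood in 27 (43.5%), CCAAT in 37 (59.7%), both in 20 and an E2F-type string in 14 (22.6%). The split between TTTGAA and E2F-type strings was thus less sharp in these further genes than in the 37. Counted per window instead of per gene, the shares over all 32851 windows were 17.9% for TTTGAA, 37.4% for CCAAT and 3.49% for the E2F-type strings. Of 34 TTTGAA sites in mitosis windows, 28 began no more than 60 bases before the start or after it, as in Kif11, Cdc20 and Ube2c above. Mki67 differs from these, with its TTTGAA letters far upstream. Among mitosis genes the median level left at D32 was 4.3% of D12 in the 28 genes with TTTGAA and 4.1% in the 9 without. These are matches of letters in reference sequence and say nothing of a factor being bound.

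**Figure D1:**
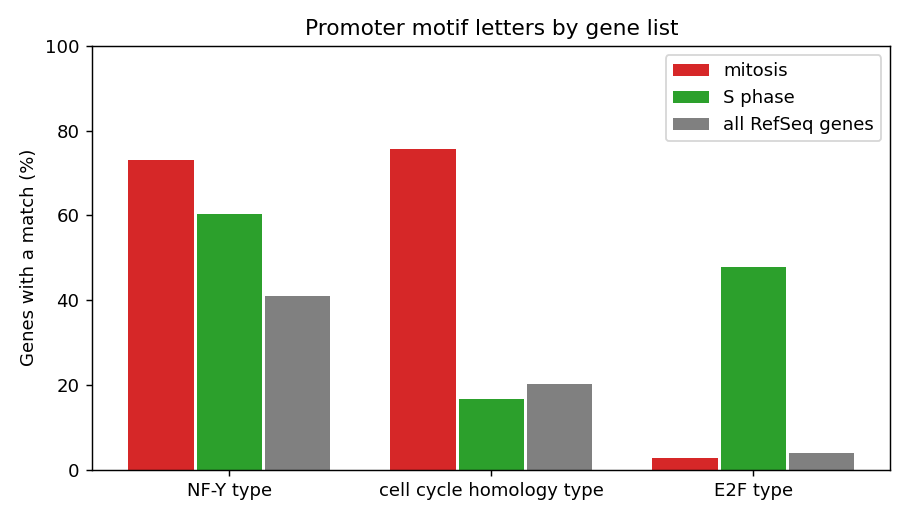
Share of genes (%, vertical axis from 0) whose promoter window holds CCAAT (NF-Y type), TTTGAA (cell cycle homology type) or an E2F-type string, in mitosis genes (n = 37), S phase genes (n = 48) and all RefSeq genes with a window (n = 27025). The TTTGAA bar stands at 75.7% for mitosis genes and 16.7% for S phase genes, and the E2F-type bar at 2.7% and 47.9%.

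All 46 mitosis genes changed over the 10 days (F test, 91.4% of all tested genes did). Their summed level was 9197 to 10540 CPM in the D0 libraries, 8276 to 10380 at D4, 4882 to 5289 at D7, 5627 to 7311 at D12, 3856 to 4614 at D18, 1746 to 2235 at D22, 1348 to 2135 at D25 and 413.8 to 442.8 at D32. Levels were thus high in iPSCs and early aggregates, were lower in the young neural retina, and dropped after D18. Of the 46 genes 24 were highest at D0, 21 at D4 and 1, Mki67, at D12. Counted from D7 on, within dissected retina, 35 of 46 were highest at D12, against 20 of 58 S phase genes, of which 34 were highest at D7.

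Between D0 and D4 the group had no common direction. At D4, 9 genes were higher and 6 lower than at D0 (27% and 24.8% of all tested genes were), and the median log2 change was -0.03, against 0.02 over all genes. Nuf2, a subunit of the NDC80 complex that grips microtubules, was higher at D4 with 102 ± 14.8 CPM, against 54.8 ± 6.19 at D0 (log2 0.90, SE 0.19, adjusted p = 0.00029). Cdk1, the kinase that starts mitosis, was higher too, with 372 ± 88.1 CPM at D4 and 228 ± 7.46 at D0 (log2 0.71, SE 0.18, adjusted p = 0.0021). Anln, a scaffold of the cytokinetic furrow, was lower, with 129 ± 14 CPM at D4 and 258 ± 42 at D0 (log2 -1.001, SE 0.20, adjusted p = 0.00014). Espl1, separase, which cuts cohesin at anaphase, was lower likewise, with 143 ± 17.4 CPM at D4 and 272 ± 31.5 at D0 (log2 -0.93, SE 0.17, adjusted p = 5.6e-05). D0 libraries were all of set 1 and D4 libraries all of set 2, and a model that also holds the set gave 3 higher and 12 lower, as scaling by library size alone gave 3 higher and 14 lower. Feeder and fibroblast markers summed to 40.6 to 88.5 CPM at D4 and 424 to 1190 CPM at D0, and their part in these changes was not tested.

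The D7 libraries, the first of dissected retina, were lower than D4 for 42 of 46 genes and higher for none (22.8% and 20% of all tested genes), with a median log2 change of -0.93. Plk1, a kinase of spindle assembly and mitotic exit, showed the largest fall, with 61.63, 64.7 and 67.95 CPM at D7, against 195, 235.8 and 175.1 CPM at D4. Its 2 groups of libraries lie far apart (log2 -1.64, SE 0.23, adjusted p = 4.5e-06). Cdc20, the activator of the APC/C, had 118 ± 8.22 CPM at D7 and 299 ± 34.9 at D4 (log2 -1.34, SE 0.15, adjusted p = 2.5e-07). Mki67, which coats chromosomes and marks cycling cells, was not called, with 482.4, 466.9 and 466.6 CPM at D7 and 448.8, 390 and 562.9 at D4 (log2 0.01). Kif4, Cenpe and Aspm were the other genes not called. Scaling by library size alone moved the median of all genes by 0.42 on this step, and 22 mitosis genes were then called, with a median of -0.47. Under that scaling the fitted changes of Kif4 and Aspm were above 0. Days D7 and D4 also differ in library set, and a model that also holds the set called 37 genes lower and 0 higher. They differ in material too, dissected retina against whole aggregate, which cannot be told apart from the day. The summed pluripotent cell markers were at 25.8 to 36.2 CPM at D7 and 52.1 to 602 CPM at D4, and the pigment epithelium markers at 272 to 313 CPM at D7 and 2.26 to 26.6 CPM at D4. The part of these cells in the result was not tested.

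Between D7 and D12 few mitosis genes were called. At D10, 3 mitosis genes were higher (Ccnb2, Prc1 and Nusap1) and 4 lower (Cdc20, Bub3, Mad2l1 and Ska3) than at D7 (20% and 17.8% of all tested genes), with a median log2 change of 0.02. Of 58 S phase genes 33 were lower and none higher, with a median of -0.46. The 7 tested MCM genes were all lower (median -0.84). They are Mcm10 and the genes of the helicase that unwinds DNA at replication forks. The model that also holds the set gave 1 higher and 6 lower mitosis genes and 30 lower S phase genes. A fit of the D7 and D10 libraries alone called 11 mitosis genes higher and 7 lower, and scaling by library size alone 5 higher and 1 lower. Prc1, which bundles the central spindle, rose most, with 157 ± 5 CPM at D10 and 104 ± 12.15 at D7 (log2 0.59, SE 0.17, adjusted p = 0.0091). A new medium was given at D7, and its part in this step cannot be told apart from the day. At D12, Mad2l1 and Nek2 were higher than at D10 and no gene was lower (2.52% and 1.89% of all tested genes), and S phase genes were higher in 9 cases, lower in none. The S phase count was 2 by library size alone and 18 with D4 replicate 1 alone. Oxygen and medium both changed at D10, and the step to D12 cannot be told apart from them.

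At D15, 6 mitosis genes were lower than at D12 and none higher (2.29% and 5.13% of all tested genes), namely Kif11, Kif20a, Kif20b, Kif4, Cenpe and Ska3, and 44 of 46 fitted changes were negative (median -0.37). Kif11, Kif20a, Kif20b, Kif4 and Cenpe encode kinesins, which are microtubule motors, and Ska3 a kinetochore protein. Kif20a, needed at the cleavage furrow, had 119, 85.29 and 103.8 CPM at D15, against 167.8, 177.7 and 146.6 at D12. Those libraries do not overlap (log2 -0.68, SE 0.15, adjusted p = 0.0066). S phase genes were lower in 20 of 58 cases on the same step. With replicates 1 and 3 alone for D10 to D25, which leaves out the set 1 libraries, 0 mitosis genes and 9 S phase genes were called, and by library size alone 1 and 13. At D18 only Cdc20 was called lower than at D15 and none higher (0.975% and 1.91% of all tested genes), with 66.3 ± 7.97 CPM at D18 and 97.9 ± 22 at D15 (log2 -0.56, SE 0.15, adjusted p = 0.041). No gene was called on this step without the set 1 libraries or with transcript sums, and DESeq2 called 4.

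At D22, 44 of 46 genes were lower than at D18 and none higher (4.44% and 3.75% of all tested genes), and the median log2 change was -1.07, against 0.00 over all genes. Top2a, the topoisomerase that untangles sister chromosomes, had 192.8, 193.3 and 271.1 CPM at D22 and 500.7, 550.6 and 629.6 CPM at D18. All D22 libraries are below all D18 libraries (log2 -1.35, SE 0.19, adjusted p = 3.6e-05). Bub3, a checkpoint protein, and Pttg1, securin, which holds separase in check, were not called on this step. Bub3 had 108 ± 13.8 CPM at D22 and 138 ± 22.34 at D18 (adjusted p = 0.077), and Pttg1 28.9 ± 5.69 and 40.1 ± 5.98 CPM (adjusted p = 0.15). S phase genes were lower in 38 of 58 cases with a median of -0.74. That count was 16 with replicates 1 and 3 of D10 to D25 alone, where 41 mitosis genes were lower, and 25 in a fit of the D18 and D22 libraries alone, where 44 were. The step from D22 to D25 called no mitosis gene (1.02% of all tested genes were lower and 1.45% higher). At an unadjusted p under 0.05, 9 were lower and 0 higher, and DESeq2 called 1. Whether the steps differ from each other in size was not tested, and neighbouring steps share a day.

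The step from D25 to D32 spans more days than any other. At D32, 45 of 46 genes were lower than at D25 and none higher (13.8% and 9.31% of all tested genes), with a median log2 change of -2.45, which is 5.48-fold lower, against -1.15 over S phase genes, of which 46 of 58 were lower. Pttg1 was the gene not called, with 15.12 ± 1.19 CPM at D32 and 19.2 ± 2.97 at D25 (log2 -0.35, SE 0.20, adjusted p = 0.22). The medium gained serum and B27 within this step, so the day and the medium cannot be told apart here.

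**Figure D2:**
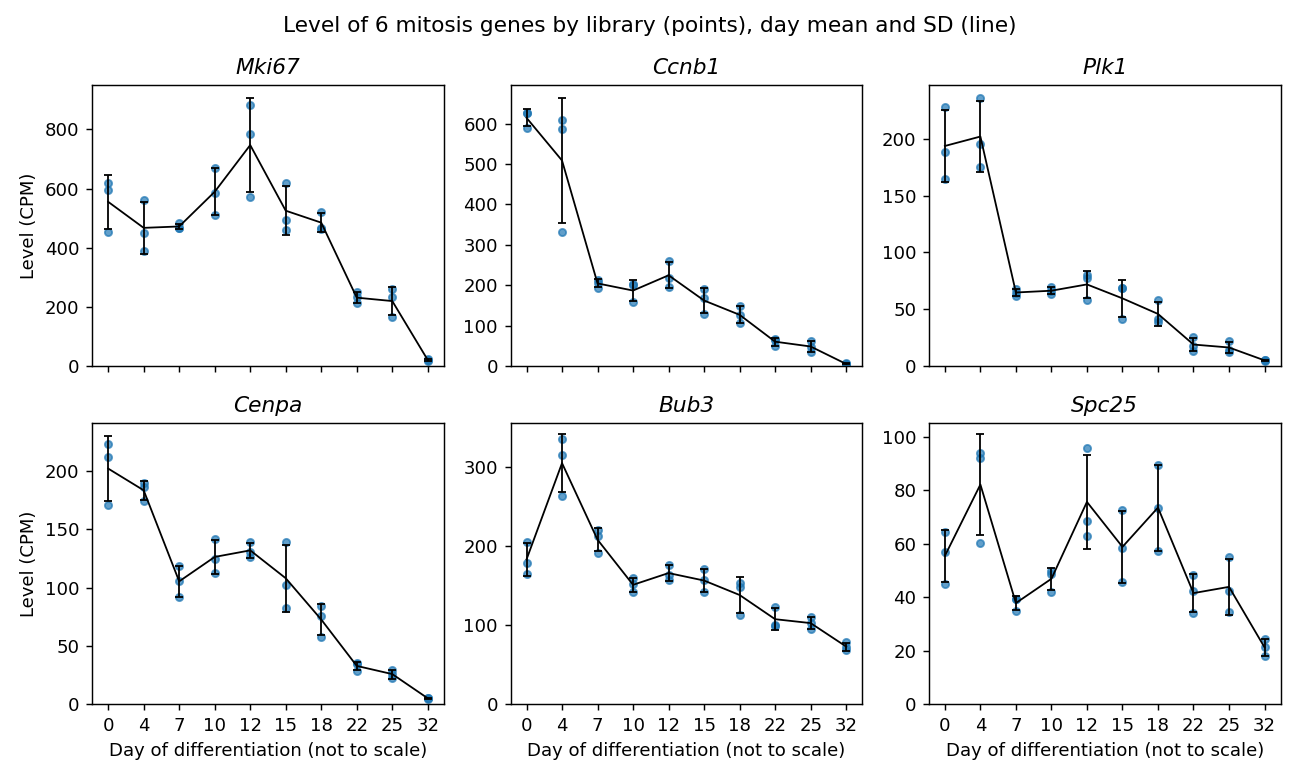
Level (TMM CPM, vertical axes) by day of differentiation (horizontal axes) for Mki67, Ccnb1, Plk1, Cenpa, Bub3 and Spc25, with a point for each library, a line through day means and bars of 1 SD (n = 3). Mki67 is at 747 CPM on average at D12 and 20.4 at D32, while Bub3 still stands at 73 CPM at D32.

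Over the whole span from D12 to D32, 46 of 46 genes fell (29.1% of all tested genes were lower and 29.3% higher), with a median log2 change of -4.54, or 23.2-fold lower. Before the medium change, at D25 against D12, 46 of 46 were already lower (22.8% of all tested genes were lower and 23.4% higher), with a median of -2.01, or 4.03-fold. The 2 spans share the D12 libraries. Values by role follow, in the order in which mitosis uses them.

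Markers of cycling chromosomes fell far. Mki67 (chr7:135689788-135716379, minus strand, GRCm38.p4) had 18.51, 18.97 and 23.64 CPM at D32, against 784.7, 883.7 and 572.8 CPM at D12. The D12 libraries differ widely among themselves, and every D32 library is far below them (log2 -5.20, SE 0.21, adjusted p = 3.2e-16). At D25 it had stood at 235.1, 165.2 and 259.1 CPM, with the set 1 library lowest. Top2a had 29.8 ± 3.5 CPM at D32 and 883 ± 151 at D12 (log2 -4.89, SE 0.22).

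The cyclins and CDK1, the switch into mitosis, fell by a median of 4.83 on the log2 scale by D32. Ccnb1, cyclin B1 (chr13:100778650-100786570, minus strand), had 4.043, 5.217 and 6.563 CPM at D32, against 218.4, 259.2 and 196.3 CPM at D12 (log2 -5.41, SE 0.26, adjusted p = 4.9e-15). It kept 2.348% of its D12 level, the second lowest share of the group. Cdk1 had 6.137, 8.157 and 8.487 CPM at D32 and 205.1, 220.8 and 187 CPM at D12 (log2 -4.75, SE 0.22, adjusted p = 1.8e-15). Cdc25c, the phosphatase that activates CDK1, fell to 1.08 ± 0.23 CPM at D32, against 40.3 ± 5.2 at D12 (log2 -5.21). Ccna2, cyclin A2, which works from S phase into early mitosis, fell least of these 5 (log2 -4.20).

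Among the kinases of spindle building, Plk1 (chr7:122159439-122169873, plus strand) had 4.189, 5.501 and 5.428 CPM at D32, against 80.25, 58.26 and 77.11 at D12 (log2 -3.83, SE 0.26, adjusted p = 3.2e-12). Aurka, which matures centrosomes, kept more, with 9.82 ± 0.477 CPM at D32 and 60.9 ± 6.79 at D12 (log2 -2.63). Nek2, a kinase that parts the centrosomes, changed by -4.41.

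The chromosomal passenger complex corrects faulty attachments and later guides cytokinesis, and its 4 subunits fell by 2.70 to 5.11 on the log2 scale. Its kinase Aurkb had 2.387, 2.514 and 2.27 CPM at D32 and 92.76, 72.57 and 83.03 CPM at D12 (log2 -5.11, SE 0.21, adjusted p = 4.5e-16). Birc5, survivin, changed by -5.10 and Cdca8, borealin, by -4.06. Incenp, the scaffold that holds the kinase, kept 15.38% of its D12 level, with 21.2 ± 2.62 CPM at D32 and 138 ± 18.7 at D12 (log2 -2.70, SE 0.13).

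Spindle checkpoint genes had the smallest median of any role by D32 (-3.59) and the widest range. Bub1, the kinase that recruits the checkpoint to kinetochores, had 2.435, 2.039 and 3.158 CPM at D32, against 95.93, 135.1 and 79.71 at D12 (log2 -5.35, SE 0.29, adjusted p = 3.5e-14). Its partner Bub3 (chr7:131560222-131571895, plus strand) had 72.33, 78.35 and 68.39 CPM at D32, against 163.9, 157.5 and 176.9 CPM at D12. That is the smallest fall of the 46, and still the 2 days do not overlap (log2 -1.19, SE 0.13, adjusted p = 1.3e-08). Bub3 kept 43.97% of its D12 level. Mad2l1, the inhibitor that binds Cdc20, kept 12.25%, and Ttk, the kinase at the head of the checkpoint, changed by -4.65.

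All 7 Kif genes among the 46 fell, by -3.45 to -5.11. Kif11, which pushes the spindle poles apart, had 5.114, 5.454 and 7.056 CPM at D32 and 186.9, 267.8 and 154.7 at D12 (log2 -5.11, SE 0.20, adjusted p = 2.4e-16). Kif20b, another furrow kinesin, reached 21.5% of its D12 level at D25 and 9.155% at D32, and its change from D25 to D32 was -1.23, against -2.98 for Kif11.

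The centromere and kinetochore genes held both the deepest fall and one of the shallowest. Ska1, part of the complex that keeps kinetochores on moving microtubule ends, was at 0.3409, 0.3794 and 0.1974 CPM at D32, that is 7, 8 and 4 counts, against 12.68, 16.62 and 12.79 CPM at D12 (log2 -5.49, SE 0.27). Cenpa (chr5:30666777-30674830, plus strand), the histone that marks centromeres, had 5.26, 4.695 and 5.28 CPM at D32 and 130.5, 138.9 and 126.2 CPM at D12 (log2 -4.70, SE 0.19, adjusted p = 3.3e-16). The NDC80 complex has 4 subunits, of which Ndc80, Nuf2 and Spc24 changed by -5.31, -4.61 and -4.17. The remaining subunit, Spc25 (chr2:69193895-69206194, minus strand), had 24.26, 18.07 and 21.51 CPM at D32, against 68.51, 95.59 and 62.75 at D12 (log2 -1.83, SE 0.22, adjusted p = 9.8e-08). Spc25 was also the gene least like the group over time: it stood at 57.4, 73.51 and 89.59 CPM at D18, overlapping D12, and at 42.24, 34.32 and 55.06 CPM at D25. Without the set 1 libraries its change at D25 against D12 was -0.44 (adjusted p = 0.19), so that call rests on them.

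Genes of anaphase entry changed by a median of -4.52 by D32, with Ube2c, which feeds ubiquitin to the APC/C, at 2.84 ± 0.496 CPM at D32 and 88.4 ± 5.16 at D12 (log2 -4.96). Espl1 changed by -4.52 and Cdc20 by -4.32, while Pttg1 had 16.46, 14.23 and 14.65 CPM at D32 and 46.4, 32.77 and 43.43 at D12 (log2 -1.43, SE 0.20, adjusted p = 1e-06). Pttg1 kept 36.99% of its D12 level. Genes of spindle assembly and cytokinesis had a median of -4.20. Aspm, a spindle pole protein of neural progenitors, changed by -5.32 and Prc1 by -2.10.

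**Figure D3:**
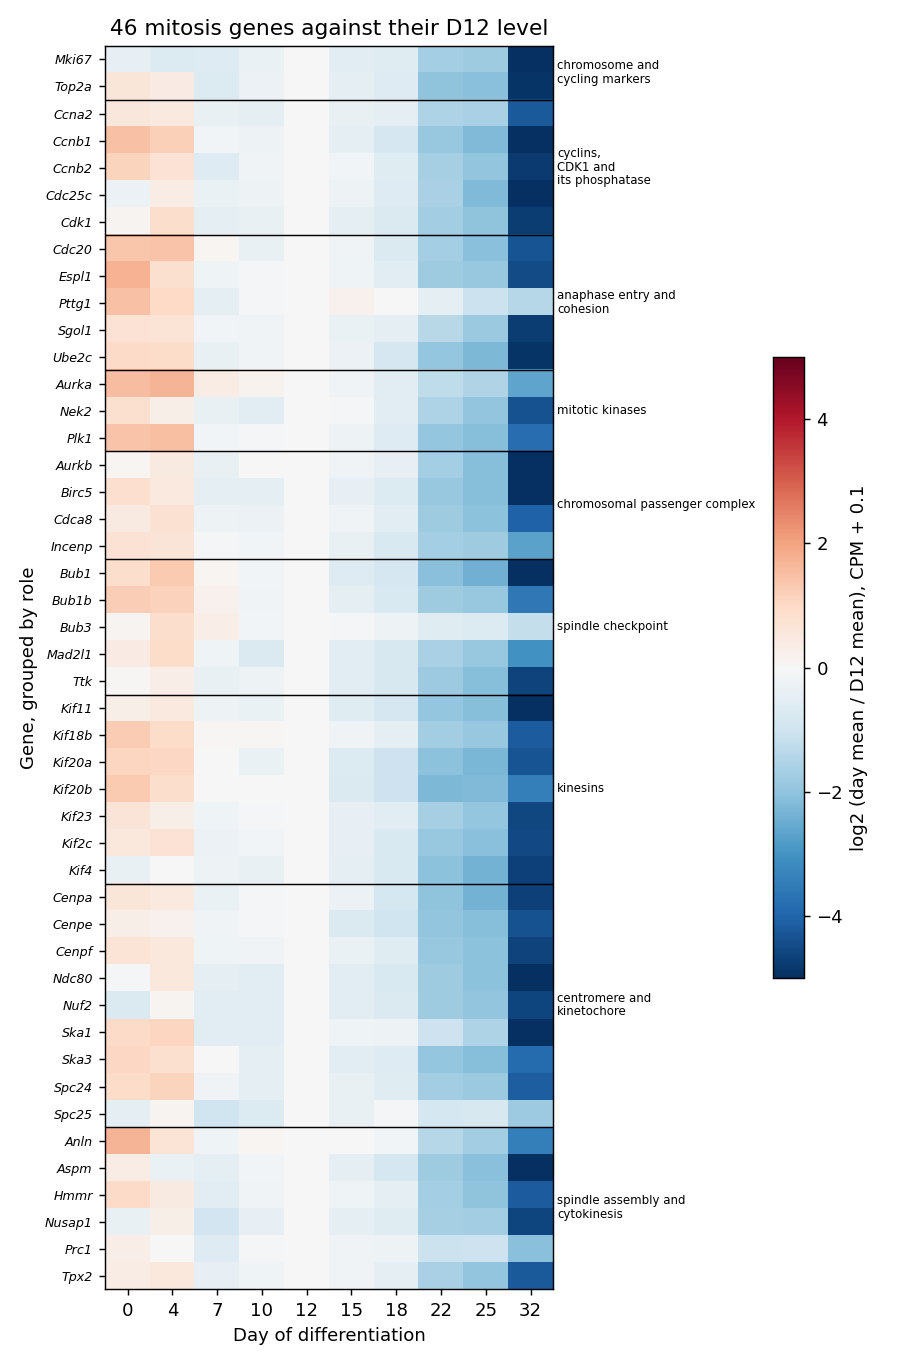
Day means of the 46 mitosis genes (rows, grouped by role) over the 10 days (columns), coloured by log2 of the day mean over the D12 mean (CPM + 0.1, colour scale ending at -5 and 5). Most rows pass to deep loss at D32, and Bub3, Pttg1, Spc25 and Prc1 stay paler, at 43.97%, 36.99%, 28.14% and 23.35% of D12.

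The genes that kept most were checked on the table of transcript estimates. For Bub3 and Spc25 the main transcript carried the remainder: Bub3-001 had 61.8 ± 3.14 CPM at D32 and 143 ± 13.8 at D12, and Spc25-001 18.5 ± 2.39 and 63.6 ± 16.8 CPM. Pttg1 was spread over several forms, with Pttg1-001 at 38.5% of the gene at D32 and 45.8% at D12. Pttg1-008 stood at 31% and 32.6% on these days. Prc1 differed between tables, keeping 23.4% of D12 in the gene table and 12.16% in the sum of its 14 transcripts. Its most abundant form at D12, Prc1-006, had 4.53 ± 0.68 CPM at D32 and 98 ± 29.5 at D12. A shorter form, Prc1-008, had 4.9 ± 1.27 CPM at D32 and 1.17 ± 1.01 at D12, and its share of the gene was 23.3% at D32 and 0.675% at D12. Birc5 shifted between forms as well: Birc5-001 made up 38.2% of the gene at D32 and 83.2% at D12, and the longer Birc5-002 made up 61.8% and 16.8%. These are estimates by kallisto, which divides shared reads between transcripts, and no test was run on them.

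The pace of loss was set against 58 S phase genes of MCM, origin licensing, polymerases, nucleotide supply, and chromatin assembly together with S phase cyclins. D12 was taken as the base because Mki67 was already known from these data to be highest there. Counted from D7 on, 35 of 46 mitosis genes but only 20 of 58 S phase genes were highest at D12. The base thus suits the mitosis list better, and the pace values depend on it. Gene by gene on the day means, the level reached 50% of D12 at a median of day 19.2 for mitosis genes and 19.3 for S phase genes. The upper quartile was day 19.8 for mitosis genes, against 21.1 for S phase genes. The first mitosis gene to pass 50% was Kif20a at day 17.7 and the last Bub3 at day 29.4. The paths parted later: 25% was reached at a median of day 24.7 by mitosis genes (43 of 46 reached it) and 26.7 by S phase genes (42 of 58). These day means mix both library sets, and loss days were not worked out for set 2 alone. In set 2 alone the log2 distance between the list medians, described below, was -0.12 at D22 and -0.10 at D25. Over all libraries it was -0.24 and -0.35. The level of 12.5% was passed by 40 of 46 mitosis genes and by 28 of 58 S phase genes, all by interpolation between D25 and D32. At D25 itself the lowest share was 18.89% of D12 among mitosis genes and 12.87% among S phase genes.

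As shares of D12, the median mitosis gene stood at 77.51% at D15, 64.31% at D18, 29.61% at D22, 24.81% at D25 and 4.295% at D32. The median S phase gene stood at 71.83%, 58.94%, 33.87%, 31.02% and 13.58% on the same days. At D32, 39 of 46 mitosis genes were below 10% of D12 (84.8%), against 24 of 58 S phase genes (41.4%) and 2.97% of all genes with a D12 level. S phase genes were the wider group. Uhrf1, which carries DNA methylation through replication, kept 2.302% and Mcm5 2.798%, while the origin recognition genes Orc4, Orc3 and Orc5 kept 109.9%, 83.01% and 72.72%. By role, MCM genes, with Mcm10 among them, changed by a median of -4.54 at D32 against D12, and licensing genes by -2.10 and polymerases by -2.46. Nucleotide supply genes lay between, at -3.46, as did the group of chromatin assembly genes and S phase cyclins, at -3.78. The MCM median was the same as that of the mitosis genes to the second decimal.

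**Figure D4:**
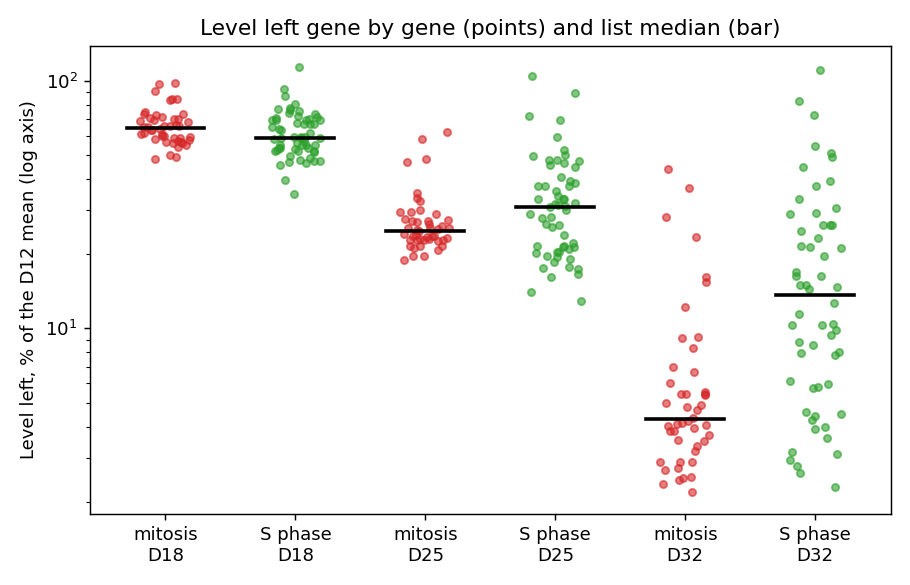
Level left as % of the D12 mean (log axis) at D18, D25 and D32, 1 point per gene, mitosis genes (n = 46) beside S phase genes (n = 58), bars at the medians. Medians are 64.31% and 58.94% at D18, 24.81% and 31.02% at D25, and 4.295% and 13.58% at D32.

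Within each library the median log2 level against D12 was taken for both lists, and the mitosis median minus the S phase median gives their distance, as a description with no test. It was -0.44 ± 0.06 at D7 and 0.18 ± 0.09 at D10, both relative to D12. It was 0.09 ± 0.24 at D15, 0.14 ± 0.37 at D18, -0.24 ± 0.05 at D22, -0.35 ± 0.25 at D25 and -1.45 ± 0.15 at D32 (SD, n = 3). At D15 and D18 the sign depended on the library set. The values at D18 were 0.36, -0.29 and 0.34 for replicates 1 to 3, and replicate 2, of set 1, was the negative one. At D22 and later all 9 libraries were negative, and at D32 they ranged from -1.61 to -1.31. The D22 and D25 means were less negative than the D7 mean, while the D32 mean lay below it. The sign at D22 and D25 may therefore depend on D12 as the base, and no other base was tried. With each day and the D12 base both taken from set 2 alone, the distance was -0.12 at D22, -0.10 at D25 and -1.27 at D32.

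**Figure D5:**
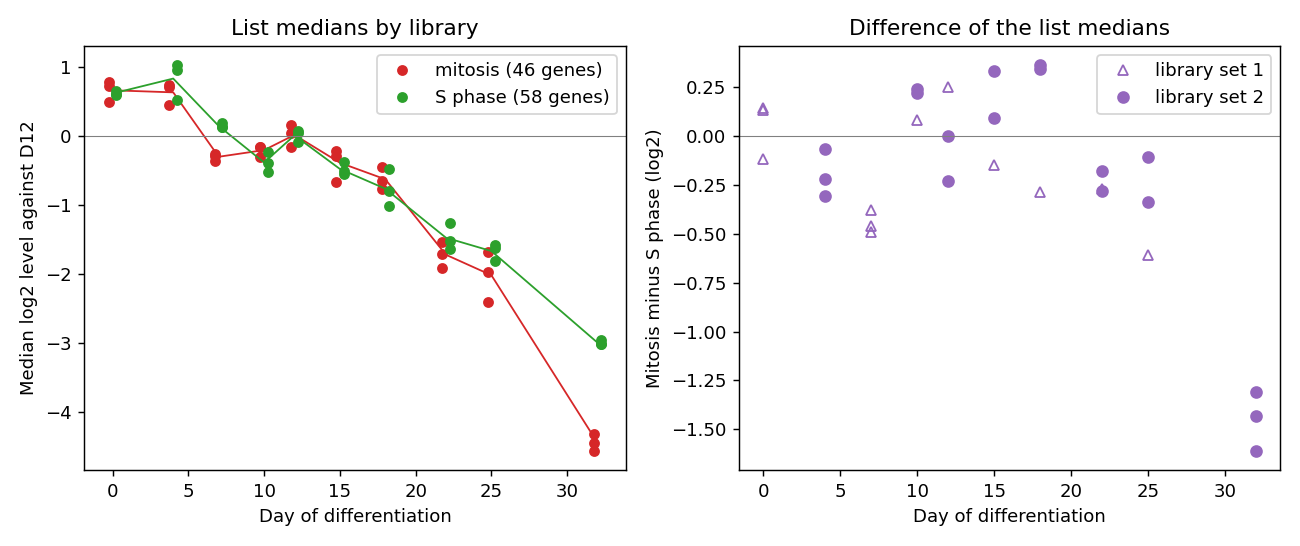
Left, median log2 level against D12 of mitosis and S phase genes in every library by day; right, mitosis minus S phase median by library, triangles for set 1 and circles for set 2. The D32 libraries lie between -1.61 and -1.31, apart from the libraries of D12 to D25.

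Of 74 further mitosis genes, 66 were lower at D25 than at D12 and none higher (22.8% and 23.4% of all tested genes), with a median of -1.51. Among the deepest were Cenph and Cenpw, of the centromere (log2 -2.58 and -2.40), and Cep55, of abscission (-2.39). Anapc2, Fzr1, Anapc10 and Ncapd3 were the least changed (-0.19, -0.16, -0.04 and 0.10) and none was called. By D32 the median change of the 74 against D12 was -2.91, near the -2.88 of S phase genes. Their median level left was 13.31% of D12, against 13.58% for S phase genes, and 37.8% of them were below 10%. The deeper loss at D32 was thus seen in the 46 genes and not in these 74. By D32, 10 of 13 genes of the APC/C or its partners (Fzr1 among them) were lower than at D12, with a median of -0.47. Other kinetochore genes were lower in 24 of 24 cases, with a median of -3.01. Of all tested genes 29.1% were lower and 29.3% higher. Ncapd3, a condensin II subunit, was higher, with 115, 123.9 and 122.1 CPM at D32 and 79, 77.03 and 63.82 CPM at D12.

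Of 20 regulators of these genes, 14 were lower at D25 than at D12 and none higher (22.8% and 23.4% of all tested genes). Foxm1, an activator of mitosis genes, had 36.72, 32.43 and 44.14 CPM at D25 and 159.5, 148.3 and 138.5 CPM at D12 (log2 -1.98), and 3.653, 4.553 and 5.181 CPM at D32. Mybl2, B-Myb, changed by -2.10, Wee1, the kinase that restrains CDK1, by -2.32, and its relative Pkmyt1 by -1.36. Cdc25a, E2f7, E2f5, E2f8 and Lin9 changed by -1.84, -1.76, -1.68, -1.58 and -1.16. Smaller falls were called for Tfdp1 (-0.81), Lin54 (-0.78), E2f4 (-0.73), Rbbp4 (-0.67) and E2f3 (-0.50). E2f2 (-0.65), Cdc25b (-0.47), E2f1 (-0.24), Mybl1 (-0.02), Lin52 (0.08) and Lin37 (0.09) were not called. Lin52 and Lin37 are subunits of the MuvB core that both the activating and the repressing complexes at cell cycle homology elements use.

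The time course of a gene was also compared with the median profile of the 46 over 10 day means, among 10827 other genes with a mean of at least 10 CPM. Among the closest were Uhrf1 (r = 0.9974), Fam83d, Fignl1, Fbxo5, Hmgb2, Spdl1, Parpbp, Smc2 and 4930427A07Rik (r = 0.994). The members themselves had a median r of 0.986 with that profile, from 0.825 for Spc25 to 0.999 for Cenpf. These r values are over days that share libraries and carry no test. Per length, at D12 the most abundant members were Top2a, Cdk1, Ccnb1, Cenpa and Birc5 with 397, 345, 221, 181 and 169 TPM (a level per length of the annotated transcripts).

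Markers of the cells in the retina moved over the same days. The 10 progenitor markers summed to 3390 to 4350 CPM at D12, 2990 to 3200 at D18, 1650 to 2120 at D22, 1110 to 1680 at D25 and 692 to 798 at D32, with none at 0. The 8 photoreceptor markers summed to 28.2 to 50.8 CPM at D12, 4130 to 6280 at D25 and 7580 to 9680 at D32. Müller glia markers were at 625 to 811 CPM at D32 and 605 to 766 at D12. Inner retina neuron markers were at 1050 to 1140 CPM at D32 and 330 to 505 at D12. Microglia and blood markers summed to at most 2.2 CPM on these days with Hbb-bs at 0. The part of the change in cell makeup in the loss of mitosis genes was not tested.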

How the data were processed

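Poly(A) RNA of 30 libraries (10 days, 3 each) was sequenced with a stranded kit, per the labels' protocols. Per the submitters' processing notes, Trimmomatic 0.36, kallisto 0.42.4 and edgeR were used with GRCm38.p4. The authors deposited estimated counts per gene, estimated counts per transcript and a normalised signal (CPM) per gene. The step from transcripts to genes and the use of strand in counting are not given in the sources used here, and 9 columns of other samples were not used.

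The mitosis genes, the other gene lists, the D12 base and the rule for naming genes were chosen with earlier results of these data known. All 46 mitosis genes could be named, as could each regulator and, in the other 2 lists, the 4 largest and 4 smallest changes at D25 against D12; 1 gene that the rule names is not reported here. Levels left at D32 of Uhrf1, Mcm5 and origin genes, and the transcripts and S phase roles named, were chosen after their values were seen. Gene estimates were rounded and tested with edgeR 4.0.16 in R 4.3.3: filterByExpr by day (minimum count 10), TMM factors (0.524 to 1.162), 1 mean per day over 30 libraries, quasi-likelihood F tests, adjustment over 19897 genes. The code was tested on simulated data. SE is the log2 change over the root of F. Shares of D12 use day means of CPM with nothing added. Loss days use day means of log2 CPM with 0.1 CPM added, interpolated linearly on that scale. Precision is limited by 3 pools a day and, for genes at low counts such as Ska1 at D32, by depth. Their parts were not compared. Alternatives were RLE factors, library size, 2 other filters, DESeq2 1.42.0, limma 3.58.1 on the deposited CPM, a replicate block, the library set as a term, only the days compared, and each library left out. Transcript sums, replicates 1 and 3 alone and D4 replicate 1 alone were added after seeing the data.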

Additional observations from a re-analysis of the deposited data

How the results depend on the processing

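The calls at D32 against D12 and over the 10 days covered 46 mitosis genes under every alternative, as did D25 against D12 except with replicates 1 and 3 of D10 to D25 alone (45, without Spc25), and D22 against D18 (39 to 45 when 1 library was left out) and D32 against D25 (45 to 45) stayed within 1.5 times. The small steps did not. D12 against D10 (2 genes) gave 1 with RLE factors, 0 by library size, 4 with DESeq2, 0 with replicates 1 and 3 of D10 to D25 alone, 4 with D4 replicate 1 alone, and 0 to 4 with 1 library left out. D15 against D12 (6) gave 1 by library size, 1 with only the days compared, 13 with DESeq2, 11 on transcript sums, 0 with replicates 1 and 3 alone, and 0 (without D15 replicate 2) to 11 (without D4 replicate 3) with 1 left out. D18 against D15 (1) gave 0 by library size, with no filter, with only the days compared, with limma and 0.1 added, on transcript sums and with replicates 1 and 3 alone, 2 with the replicate block, 3 with the library set as a term, 4 with DESeq2, 3 with D4 replicate 1 alone, and 0 to 4 with 1 left out. D10 against D7 (7) gave 3 with no filter, 18 with only the days compared, 4 with limma and 0.1 added, and 3 to 9 with 1 left out. D25 against D22 (0) gave 1 with the set as a term, with DESeq2 and with D4 replicate 1 alone, and 0 to 1 with 1 left out. D7 against D4 (42) gave 22 by library size and 40 to 42 with 1 left out, and D4 against D0 (15) 10 to 18.

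The mitosis minus S phase distance (log2) ranged, with 1 library left out, from -0.032 to 0.246 at D15, -0.015 to 0.352 at D18, -0.401 to -0.127 at D22, -0.474 to -0.214 at D25 and -1.681 to -1.273 at D32. It was -1.295 at D32 with 1 added to CPM, and in set 2 alone 0.362 at D15, -0.121 at D22, -0.097 at D25 and -1.273 at D32. The S phase median day at 25% (26.67) was 27.39 by library size, 26.98 with 1 added and 27.2 on linear CPM. Mki67 at D7 against D4 (log2 0.01, not called) changed sign with RLE factors (-0.041), DESeq2 (-0.041), without D4 replicate 2 (-0.097) and without D7 replicate 1 (-0.0014), with a range up to 0.18 when 1 library was left out, and Kif4 and Aspm by library size (0.11 and 0.22). The causes were not tested. Library size without factors moved the median of all genes by -0.23 at D4 against D0, 0.15 at D10 against D7, -0.13 at D12 against D10, 0.12 at D25 against D12 and 0.22 at D32 against D12, where the mitosis median was then -4.3. Same-numbered libraries deviated together more often than others (r over 0.1 in 48 of 135 pairs, median 0.04, against 33 of 270 differently numbered pairs, median -0.03, with 21 of 30 libraries closest to their own number), but not in every pair, so the numbers were not taken as pairing. From D10 to D25 replicate 2 was also the set 1 library of its day, so replicate number and library set overlap there. The replicate block moved no other count by over 1.5 times.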
